A study of Mus musculus with 5 samples.

Results

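Stretches of the mouse genome that lay outside the open A compartment in 1 state of hippocampal neurons, named Early, and lay in A both in the Basal state and in the Late state are described. They are 50 kb bins of the mm9 build, on the autosomes without chromosome 7, whose PC1 was above 0 in both Basal and both Late libraries and below 0 in the Early library. PC1, the first principal component of a Hi-C contact matrix, is a signed score without a unit, in which a positive value marks compartment A and a negative value compartment B by HOMER's convention. The rule found 860 of 44650 bins, or 1.93%, among 50542 bins with a value in all 5 libraries. Put another way, 18319 bins were in A in all 4 Basal and Late libraries, and 4.69% of these were in B in Early. The bins were chosen by PC1 in every library, so the levels below are a description and carry no test.

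The libraries came from sorted hippocampal nuclei of mice with ArcCreERT2, a tamoxifen-dependent Cre driven by Arc, crossed to the R26R-STOP-floxed reporter of eYFP, with the genotype given as +/+. Neurons that express Arc around a dose of 4-hydroxytamoxifen become labelled. The groups are Basal (2 libraries), Early (1 library) and Late (2 libraries), by their titles. The second Early replicate is not analysed here. All 5 carry the same treatment label, foot shock and tissue collection on day 0 without recall, while the protocol names tissue taken 1.5 to 2 h or 5 days after contextual fear conditioning, so the time behind each title is not given here. Every library was made from 100000 nuclei per group, from 2 animals, stained for the neuronal protein NeuN and for GFP, and the labels do not say which stained fraction each holds, nor the age of the mice. Since the files hold no expression values, the neuronal label could not be checked against marker genes.

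In the nucleus, active and gene-rich chromatin tends to contact other active chromatin (compartment A), and silent or lamina-bound chromatin tends to contact its own kind (compartment B). A bin's PC1 summarises which kind of chromatin it contacts more, and a change of sign does not by itself say that a gene there was switched on or off. Switches of compartment are best known from cell differentiation.

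The longest regions can be recognised by genes that general maps of the mouse genome place inside them. An annotation of the mm9 build was not used, so no gene border is set against a bin and no value is given for a single gene. The longest, on chromosome 19, lies around Pax2, which encodes a transcription factor of the developing kidney, eye and hindbrain, the stearoyl-CoA desaturase genes Scd1 to Scd4, and Chuk, which encodes a kinase of NF-kB signalling. In the RefSeq gene order of GRCm38.p6 there are 29 protein-coding genes from Abcc2 to Btrc, both included. A second on chromosome 19 lies around Slit1, an axon guidance ligand, Blnk, an adaptor of B cell receptor signalling, and Dntt, the template-free DNA polymerase of lymphocytes, with 15 protein-coding genes from Entpd1 to Frat1. The longest on chromosome 16 lies around Kalrn, which encodes a guanine nucleotide exchange factor of dendritic spines, with 8 protein-coding genes from Slc12a8 to Ccdc14. Another on chromosome 16 lies around Sema5b, an axon guidance semaphorin, with 6 from Sema5b to Parp9.

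Promoters of 3 of these genes are shown because they identify the regions that dominate the results. Each run gives the 250 bases before an annotated start from RefSeq, build GRCm38.p6, 5′ to 3′ on the gene's own strand, with CG dinucleotides in capitals; positions are left out because that build is not the one of the PC1 files. All 3 genes looked up were matched, and of the 3 starts listed for Pax2 the first in the table is shown.
Pax2, chromosome 19, plus strand: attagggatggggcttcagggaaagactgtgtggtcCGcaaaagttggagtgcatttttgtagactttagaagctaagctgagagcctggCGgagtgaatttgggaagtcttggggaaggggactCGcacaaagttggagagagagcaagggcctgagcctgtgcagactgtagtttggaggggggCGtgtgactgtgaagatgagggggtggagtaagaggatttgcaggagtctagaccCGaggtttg
Kalrn, chromosome 16, minus strand: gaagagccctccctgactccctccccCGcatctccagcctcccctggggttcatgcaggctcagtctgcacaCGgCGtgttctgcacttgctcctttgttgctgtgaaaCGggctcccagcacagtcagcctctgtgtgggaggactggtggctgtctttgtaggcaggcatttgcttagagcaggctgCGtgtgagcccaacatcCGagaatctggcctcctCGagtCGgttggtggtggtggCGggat
Sema5b, chromosome 16, plus strand: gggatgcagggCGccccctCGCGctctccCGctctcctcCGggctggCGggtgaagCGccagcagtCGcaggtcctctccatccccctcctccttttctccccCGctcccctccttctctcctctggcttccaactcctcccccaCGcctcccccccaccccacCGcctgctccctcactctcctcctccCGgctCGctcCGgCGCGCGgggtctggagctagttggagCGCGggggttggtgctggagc
The motif searched, CG, reads the same on both strands and cannot overlap itself. It occurred 5 times before Pax2, 9 times before Kalrn and 19 times before Sema5b, against a median of 6 over 32851 promoters. At least as many were found in 55.6%, 40.3% and 19.7% of those promoters, so the 3 range from ordinary to CpG-rich. These are matches in short windows, and the 50 kb bins say nothing about a single promoter.

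Over the 860 bins, PC1 had a median of 0.465 in Basal replicate 1 and 0.459 in Basal replicate 2. The Early library had a median of -0.198, with values from -1.30 to -0.000178. Late replicate 1 had a median of 0.530 and Late replicate 2 of 0.447. The bins thus sat at a moderate A level in Basal and Late, since bins in A in all 5 libraries had a median of 1.10 in each Basal library. Of the 860, 609 lay below -0.1 in Early, 135 below -0.5 and 8 below -1. All 4 Basal and Late values exceeded 0.5 in 224 bins, and 59 of these lay below -0.5 in Early. Just inside the rule, chromosome 10 from 98950001 to 99000000 had -0.000178 in Early, and just outside it, chromosome 6 from 90550001 to 90600000 had 0.000125.

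**Figure D1:**
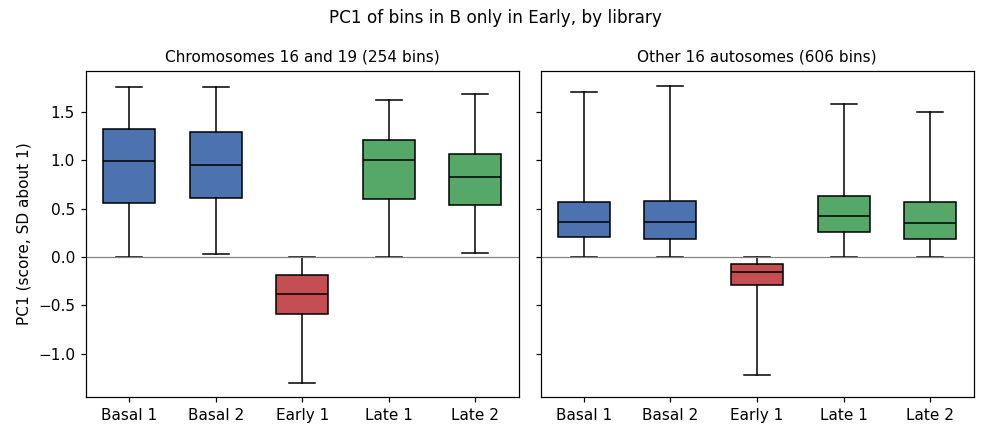
PC1 (score, vertical axis) of the bins in B only in Early in each of the 5 libraries, for chromosomes 16 and 19 (254 bins) and for the other 16 autosomes (606 bins). Boxes span the quartiles with the median as a line and whiskers reach the lowest and highest bin; the Early boxes lie below 0 by the rule, with a median of -0.379 on chromosomes 16 and 19 and of -0.151 elsewhere.

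Chromosomes 16 and 19 held 254 of the 860 bins (29.5%), although they hold 3063 of the 44650 bins analysed. On chromosome 19, 125 of 521 bins that were in A in all Basal and Late libraries were in B in Early (24.0%). On chromosome 16 these were 129 of 689 (18.7%). Among the other 16 autosomes the median share was 3.50%, the lowest 1.24% (chromosome 2) and the highest 6.29% (chromosome 9). Chromosomes 16 and 19 also had the highest shares of the opposite change, from B into A only in Early, as given further below. The bins of chromosomes 16 and 19 also differed in level: their medians were 0.990 and 0.954 for Basal against -0.379 in Early, with 1.01 and 0.833 in Late. On the other chromosomes the medians were 0.367 and 0.365 for Basal against -0.151 in Early, with 0.429 and 0.348 in Late. The rule therefore pooled bins of a higher A level on 2 chromosomes with mostly weak A bins elsewhere.

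**Figure D2:**
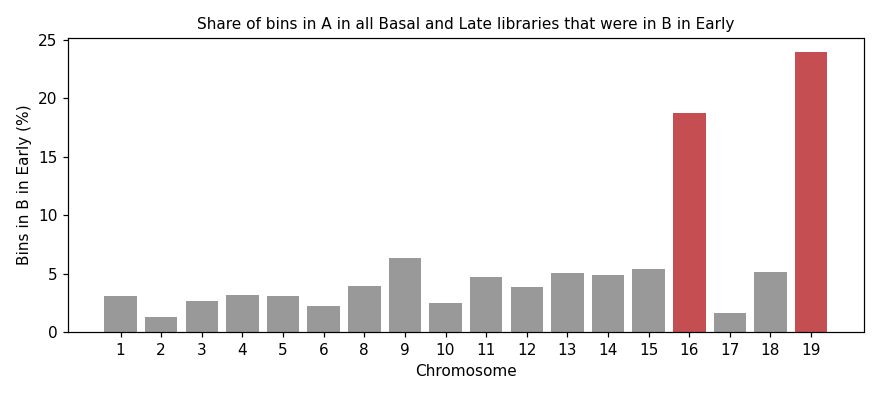
Share of bins in A in all Basal and Late libraries that were in B in the Early library (percent, vertical axis) for each of the 18 autosomes (horizontal axis). Chromosomes 19 (24.0%) and 16 (18.7%), in red, stand above the others, of which chromosome 9 is highest with 6.29%.

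Neighbouring bins were joined into regions across a gap of at most 1 bin, which gave 422 regions. The 12 with the most bins and the 8 with the lowest Early value among regions of at least 3 bins overlap, and 15 are named in all. The longest was chromosome 19 from 43650001 to 45800000 (41 bins), around Pax2 and the Scd genes. Its mean PC1 was 1.18 and 1.15 in Basal against -0.418 in Early, with 1.14 and 1.12 in Late. All 4 Basal and Late values lay within 0.1 of each other, and Early lay 1.58 below the Basal mean of 1.16 ± 0.020 (SD, n = 2). The lowest bin of the region in Early was -0.989 and the highest -0.00674.

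Chromosome 19 from 40400001 to 42100000 (31 bins), around Slit1, had 0.893 and 0.954 in Basal against -0.475 in Early, with 0.883 and 0.910 in Late. From 45900001 to 46450000 (10 bins), PC1 was 1.38 in both Basal libraries against -0.409 in Early, with 1.19 and 1.02 in Late. Late was thus 0.271 below Basal there, and none of its 10 bins passed limma for that difference. The region from 42400001 to 42850000 (9 bins) had 0.701 and 0.699 in Basal against -0.689 in Early, with 0.670 and 0.629 in Late. From 47450001 to 47950000 (10 bins) Basal was at 0.629 and 0.502, Early at -0.484, and Late at 0.919 and 0.741. The short region from 38250001 to 38450000 (4 bins) had the lowest Early mean of all named regions, -0.720, with 0.472 and 0.568 in Basal and 0.382 and 0.554 in Late. In all 6 named regions of chromosome 19 the 4 other values lay closer to each other than to Early.

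These regions lie in 1 broad stretch in which nearly every bin was lower in Early, whichever compartment it was in. From 36 to 48 Mb of chromosome 19, bounds set after the data were seen, 237 of 240 bins lay below the mean of the 4 other libraries. The 121 members among them did so by the rule. Its 167 bins in A in all Basal and Late libraries had a median difference of -1.27, and 121 of them were in B in Early. The 46 in A in Early were higher in Basal, with a median Basal mean of 1.34 against 0.998, and their median in Early was 0.289. These 46 are not members, and their median difference was -1.01. The 58 bins in B in all Basal and Late libraries were also lower in Early (median difference -0.750). Over the 240 bins Early correlated with the Basal mean with a Pearson r of 0.850, and Late did with 0.978. Over the 167 bins in A alone, r was 0.467 for Early and 0.883 for Late. Neighbouring bins share reads, and these correlations are given without a test. On the proximal side of the same chromosome Early lay higher than the other libraries, by a mean of 0.731 from 5 to 10 Mb.

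**Figure D3:**
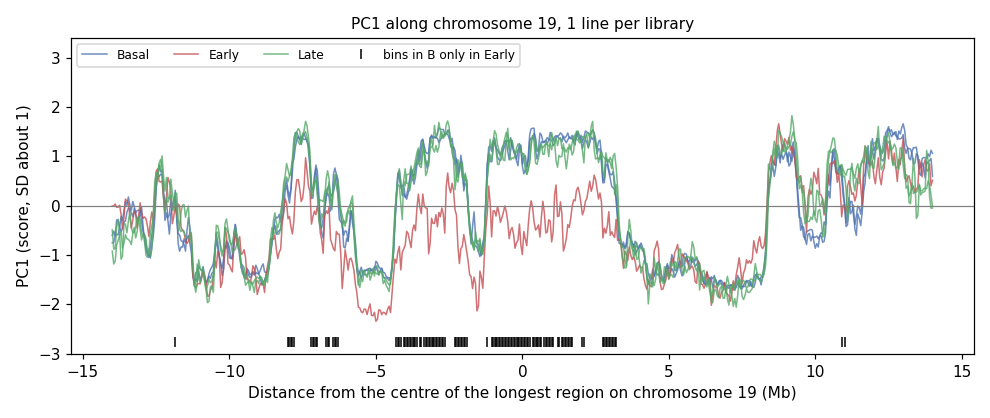
PC1 (score, vertical axis) along chromosome 19 against the distance from the centre of its longest region in Mb (horizontal axis), with 1 line per library and a black tick for each bin in B only in Early. The Early line (red) runs below Basal (blue) and Late (green) over most of the stretch that holds 121 of the 125 bins of this chromosome. Early correlated with the Basal mean there with r of 0.850 over all 240 bins. Over the 167 bins in A in all Basal and Late libraries r was 0.467.

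Chromosome 16 also held a broad stretch that was lower in Early. The region from 33350001 to 34950000 (31 bins), around Kalrn, had 1.17 and 1.10 in Basal against -0.483 in Early, with 1.18 and 0.782 in Late. Late replicate 2 was the lower of the Late pair there, at an SD of 0.279 between the replicates (n = 2). From 35350001 to 36100000 (15 bins), around Sema5b, PC1 was 0.775 and 0.899 in Basal against -0.695 in Early, with 0.959 and 0.860 in Late. From 30 to 38 Mb, again bounds set after the data were seen, 159 of 160 bins lay below the mean of the 4 other libraries. The 82 members among them did so by the rule. Of 146 bins in A in all Basal and Late libraries 82 were in B in Early, and their median Basal mean was 1.13 against 1.38 for the 64 in A in Early. These 64 are not members, and their median difference was -0.930. The 13 bins in B in all Basal and Late libraries had a median difference of -0.920. Over the 160 bins Early correlated with the Basal mean with r of 0.763, and Late did with 0.887. Over the 146 bins in A alone, r was 0.427 and 0.533. Elsewhere on the chromosome Early went both ways. It lay above the other libraries by a mean of 1.04 from 50 to 55 Mb. Its mean difference from them was -0.711 from 0 to 5 Mb and -0.506 from 5 to 10 Mb. Over all bins of a chromosome, Early correlated with Basal with r of 0.734 and 0.732 on chromosome 16 and of 0.740 and 0.741 on chromosome 19.

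**Figure D4:**
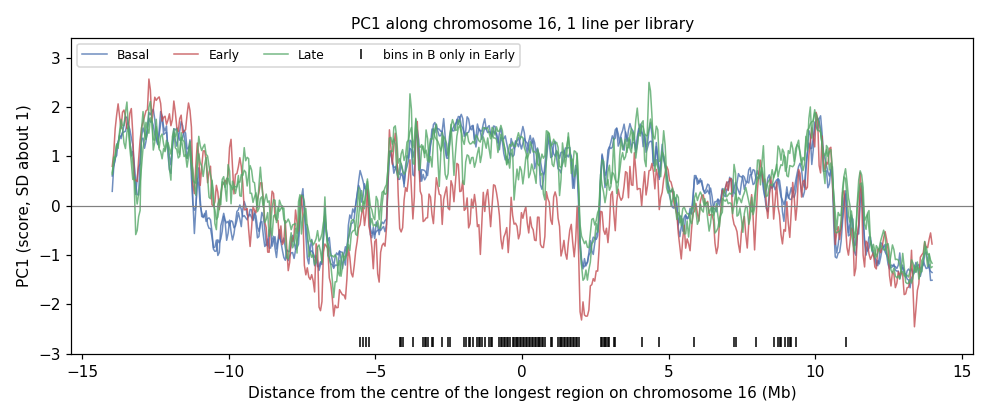
PC1 (score, vertical axis) along chromosome 16 against the distance from the centre of its longest region in Mb (horizontal axis), with 1 line per library and a black tick for each bin in B only in Early. Early (red) runs below Basal (blue) and Late (green) across the middle of the plot, where 159 of 160 bins from 30 to 38 Mb were lower. The 82 members among them were lower by the rule.

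Since such broad shifts move many bins together, the values were also taken with a running mean over 10 Mb removed from each library. On chromosomes 16 and 19 the median difference of the members, Early minus the 4 others, went from -1.33 to -0.459. On the other autosomes it went from -0.567 to -0.483. Early was then below 0 in 125 of the 254 members on chromosomes 16 and 19, and in 474 of the 606 elsewhere. It remained the lowest of the 5 libraries in 189 and 561 of them. By the rule Early was the lowest in every member as deposited, so these counts are a description and no test. With the trend removed 177 of the 860 bins (20.6%) still met the whole rule. Early itself was still below 0 in 599, and where such a bin no longer met the rule, at least 1 of the 4 other values was no longer above 0. In 5 named regions of chromosome 19 Early turned positive: it was 0.224 from 43650001, 0.210 from 40400001, 0.234 from 45900001, 0.348 from 47450001 and 0.212 from 38250001. In 2 other named regions the mean of the 4 Basal and Late libraries turned negative instead, to -0.212 on chromosome 9 from 101550001 and to -0.559 on chromosome 6 from 90350001.

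Outside chromosomes 16 and 19, 7 named regions lay on 6 chromosomes. Chromosome 18 from 78900001 to 79300000 (8 bins) had the largest difference of these, with 0.941 and 0.791 in Basal against -0.483 in Early, with 0.630 and 0.286 in Late. With the trend removed the difference between Early and the 4 others stayed at -1.15, while in the named regions of chromosome 19 it then lay between -0.740 and -0.214. Chromosome 9 carried 2 regions close together: from 100700001 to 101100000 (8 bins) PC1 was 0.547 and 0.590 in Basal against -0.349 in Early, with 0.771 and 0.631 in Late. From 101550001 to 102100000 (9 bins) it was 0.191 and 0.214 in Basal against -0.255 in Early, with 0.379 and 0.389 in Late. Chromosome 4 from 59550001 to 59900000 (7 bins) had 0.252 and 0.231 in Basal and -0.444 in Early, while Late was at 0.280 and 0.268. In all 4 of these regions Early was the only library below 0, by the rule, and the Late replicates of chromosome 18 spread most.

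Chromosome 11 from 107650001 to 108250000 (10 bins), a stretch that maps of the mouse genome give to Prkca, the gene of protein kinase C alpha, had 0.271 and 0.225 in Basal against -0.195 in Early, with 0.280 and 0.391 in Late. It is the weakest of the named regions in Early. Chromosome 6 from 90350001 to 90550000 (4 bins) had 0.141 and 0.120 in Basal against -0.575 in Early, with 0.517 and 0.341 in Late, so Late exceeded Basal in both replicates. Chromosome 1 from 176450001 to 176600000 (3 bins) had 0.438 and 0.233 in Basal against -0.645 in Early, with 0.106 and 0.124 in Late. In this last region both Late values lay below both Basal values.

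By size, 277 of the 422 regions were single bins, and they held 32.2% of the members. The 77 regions of 3 or more bins held 52.0%, and the 7 of 10 or more bins, 6 of them on chromosomes 16 and 19, held 17.2%. The median Early value was lower in larger regions, from -0.103 in single bins to -0.255 in regions of 3 or more bins and -0.475 in those of 10 or more. Local noise is the scatter of a bin around the bins 100 kb to either side, estimated from the differences between libraries. A local change found in the lone Early library therefore counts as its noise. It was highest in Early, at 0.226 PC1 units against 0.114 to 0.204 in the other libraries. Of the 860 members 390 (45.3%) lay further below 0 in Early than this noise, and 71 of the 272 single bins with both neighbours measured did. Both neighbours of 104 of those 272 single bins were in A in Early. The part of noise in the single bins was not tested.

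The share of A bins that were in B in Early went with the level in Basal, in a different way on the 2 sets of chromosomes. A bin with a Basal value near 0 needs only a small drop to enter B. A share that falls with the Basal level is therefore partly built into the rule. On the 16 other autosomes, 18.3% of bins with a Basal mean of at most 0.25 were in B in Early, 11.1% of those from 0.25 to 0.5, and 0.440% of those from 1 to 1.5. On chromosomes 16 and 19 the shares were 28.2%, 30.2% and 21.1%. Bins from 1 to 1.5 thus entered B in Early mainly on these 2 chromosomes: 111 of 526 there, against 27 of 6142 elsewhere. Chromosome 15 held a broad drop too. Its mean difference, Early minus the 4 others, was -0.865 from 75 to 80 Mb and -0.744 from 80 to 85 Mb, with 12 members in each. The member from 75950001 to 76000000 there had 1.71 and 1.69 in Basal against -0.218 in Early, with 1.58 and 1.25 in Late. Bins are not replicates, so these shares are given without a test.

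**Figure D5:**
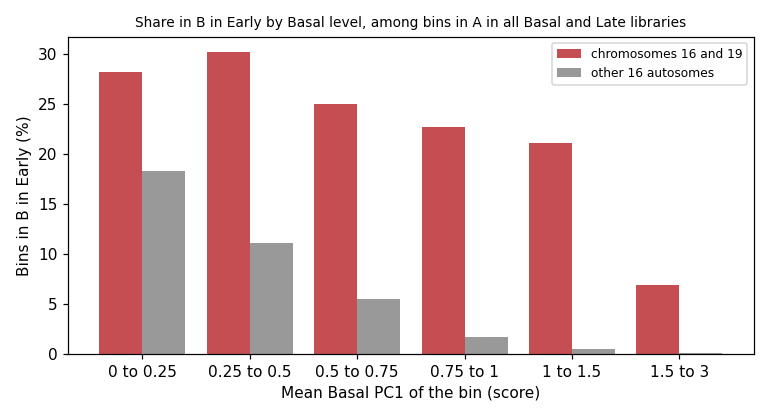
Share of bins in A in all Basal and Late libraries that were in B in Early (percent, vertical axis) by the mean Basal PC1 of the bin (score, horizontal axis), for chromosomes 16 and 19 (red) and the other 16 autosomes (grey). The grey bars drop from 18.3% to 0.123%, while the red bars stay between 21.1% and 30.2% up to a Basal mean of 1.5 and reach 6.94% above it.

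Position also differed between the 2 sets of chromosomes. On the other 16 autosomes the members lay at a median of 125 kb from the nearest change of sign of the Basal mean, and 42.9% within 100 kb of one. Bins in A in all 5 libraries on those chromosomes had a median of 825 kb, with 9.14% within 100 kb. The rule and these borders both use Basal PC1, and bins with a Basal value near 0 tend to lie near a change of its sign. The members and these bins were not matched for Basal level, so the contrast is not read as a trait of position. On chromosomes 16 and 19 the members lay at a median of 850 kb from such a border, against 675 kb for bins in A in Early too. In 5 Mb windows, 16 of 474 windows held 10 or more members and together 354 of the 860. The fullest were on chromosome 19 from 40 to 45 Mb (68 members) and chromosome 16 from 30 to 35 Mb (56), followed outside these chromosomes by chromosome 9 from 100 to 105 Mb (19) and from 105 to 110 Mb (16). By the mean difference of a window, 269 members lay in the 12 windows where Early was 0.5 or more below the other libraries, 32.1% of their A bins. The other 591 lay in the remaining windows, 3.38% of the A bins there. Of these, 147 lay in the 235 windows where Early was above the other libraries, 2.10% of their A bins. The window means include the members' own values, which the rule placed below 0 in Early, so these shares are a description. The part of broad shifts in the members was not tested.

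Whether the level in Late differed from that in Basal is the one comparison that the rule did not fix, beyond the shared sign. In limma, with Benjamini-Hochberg adjustment over 47652 bins, 31 of the 860 bins were higher in Late than in Basal, where the background was 8.78% of all bins, and 45 were lower, where it was 7.63%. These are 3.6% and 5.23% of the members. Among all 18319 bins in A in the 4 Basal and Late libraries the shares were 5.71% and 4.57%. The rule keeps bins of 1 sign in Basal and Late, so the latter is the closer reference. That reference is not matched for level: its median Basal mean was 1.07, against 0.465 for the members. In its bins on the other 16 autosomes, the median Late minus Basal difference went with the Basal mean. It was 0.287 at Basal means of at most 0.25 and -0.164 above 1.5. The difference of the members from that reference was not tested. The median Late minus Basal difference was 0.00269 over the members and -0.0114 over all bins. It pools -0.0540 on chromosomes 16 and 19 with 0.0245 on the other autosomes. On chromosomes 16 and 19, 11 of 254 members were higher and 20 lower. Of all 1210 bins there in A in the 4 Basal and Late libraries, 85 were higher and 73 lower. On the other autosomes 20 of 606 members were higher and 25 lower, against 961 and 764 of 17109 such bins. These differences were not tested. Both Late values exceeded both Basal values in 232 members (27.0%) and lay below both in 244 (28.4%), against 27.4% and 29.8% of all bins in A in the 4 libraries. An adjusted p above the threshold does not show that a bin had the same level in both. The split depended on the processing and on single libraries. As deposited 76 members differed in either direction (background 16.4%), 31 higher and 45 lower. With the 10 Mb trend removed 64 did (background 11.9%), 39 higher and 25 lower. Leaving out single libraries changed the number called, and the share of all bins called moved with it. With Late replicate 2 left out, more members were called higher than lower.

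The 2 other comparisons were used by the rule, and nothing is read from their counts. Of the 860 members 569 (66.2%) passed limma as lower in Early than in Basal, with a background of 9.98%. Those called had a median difference of -0.990 (median SE 0.158). Of Late against Early, 522 (60.7%) passed as higher in Late, with a background of 6.28%. This fit gives the lone Early library the spread of the other 4.

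Beside the mirror pattern, the members were fewer, lay more on chromosomes 16 and 19, and held more single bins as well as the longest run. In A only in Early were 1116 bins in 509 regions, of which 19.4% of bins lay on chromosomes 16 and 19, against 29.5% of the members. The same chromosomes thus stood out in both directions. Of bins in B in all Basal and Late libraries, 16.7% on chromosome 16 and 14.2% on chromosome 19 were in A in Early. The highest share on another autosome was 8.51% (chromosome 15). Single bins made up 52.1% of those regions and 65.6% of the members' regions, and regions of 5 or more bins numbered 43 against 29, while the longest run was 27 bins against 41. Bins in A in Basal and in B in Early and both Late libraries numbered 425, with a median Basal mean of 0.222, and 11.8% of them lay on chromosomes 16 and 19. The members, with a median Basal mean of 0.465, thus had the higher Basal level of these 2 groups. All of these groups rest on the same Early library and share the Basal libraries, and their differences were not tested.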

How the data were processed

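Each library came as 1 deposited table of PC1, a signed score per bin that the authors made with HOMER on mm9, per the submitters' processing notes. The version, the aligner, read filters and the way the sign was set: not given in the sources used here. Bins are 50 kb and the windows behind them 100 kb, which makes neighbours overlap. The score has an SD of 1.00 to 1.01 on each chromosome of every library, which hides any difference in overall compartment strength. The files hold no counts, so depth is unknown. Early listed the fewest bins, 50558 against 50790 to 51726, and 29 on unplaced Y sequence against 187 in Late replicate 2 and 910 to 943 in the other libraries. Whether this bears on the members was not tested. Coordinates are 1-based. Nothing says whether replicates are separate animals, so p-values measure only the spread between libraries.

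Members were counted by sign, without a test. PC1 of 47652 bins (autosomes without chromosome 7, and X) was fitted with limma 3.58.1 in R 4.3.3, all 5 libraries in 1 fit (2 residual degrees of freedom, prior 6.60), 2-sided, with Benjamini-Hochberg adjustment at 0.05. The fit was tested on simulated data. Chromosome 7 was left out because Late replicate 1 has the opposite sign there. Regions join members across at most 1 bin. Named are the 12 longest and the 8 with the lowest Early mean among those of at least 3 bins; other bins, windows and chromosomes were named after their values were seen. Alternatives changed scaling, trend, smoothing, margin, chromosomes, weights, block and libraries. Gene lists drawn up for the compartment of their starts were not used, since gene positions of mm9 were not used here. The members, lists and tests were chosen with earlier results of these data known. Python 3.11.15, numpy 2.4.6 and pandas 2.3.3 were used for the rest.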

Additional observations from a re-analysis of the deposited data

How the results depend on the processing

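The number of members was 860 as deposited, 1033 with chromosome medians set to 0, 983 with quantile normalization, 1101 with a 10 Mb trend removed, 759 averaged over 3 bins, 937 with X and 606 without chromosomes 16 and 19, the last chosen after seeing the data. A margin of 0.1 around 0 in every library left 471. The sets differ more than the counts: 97.3% of the members were kept with quantile normalization, 74.8% with aligned medians, 68.0% with 3-bin averages and 20.6% with the trend removed. Leaving out a Basal or Late library in turn gave 940 to 1044 bins and 464 to 486 regions, against 422; averaging over 3 bins gave 278 regions. The Early library could not be left out.

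Members lower in Early than in Basal numbered 569; they were 312 with the trend removed, 349 with libraries weighted by local noise, and 380 to 721 when a library was left out. Of all bins 19.9% were called in either direction in that comparison, and 11.7%, 7.23% and 8.91% to 37.5% under these changes. Members higher in Late than in Early numbered 522, and were 270, 251 and 452 to 690 under the same changes, with 12.7% of all bins called, then 7.0%, 2.10% and 7.97% to 26.5%. Members that differed between Late and Basal numbered 76, 127 with noise weights, and 10 to 229 when a library was left out, with 16.4%, 22.4% and 5.54% to 30.2% of all bins called. The replicate block gave 552, 536 and 93 for the 3 comparisons, with 20.1%, 12.2% and 18.4% of all bins called. Same-numbered Basal and Late libraries did not deviate together (r of 0.0101 over bins), so the numbers are not taken as pairs. Removing the trend made Early positive in the 5 regions of chromosome 19 given above (0.224, 0.210, 0.348, 0.234 and 0.212); the mean of the 4 others turned negative on chromosome 9 from 101550001 (-0.212) and chromosome 6 from 90350001 (-0.559). In all 15 named regions Early remained below the mean of the 4 others, by 0.214 to 1.15 with the trend removed. The regions were chosen with Early below 0 and the others above it, so this order largely follows from the rule. With 1 Early library, which has the highest local noise, no spread between Early libraries can be given.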

Other observations

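On X, left out by the rule, 77 of 1074 bins that were in A in all Basal and Late libraries were in B in Early (7.17%), above the 6.29% of chromosome 9 and below chromosomes 16 and 19. On chromosome 7, with the sign of Late replicate 1 inverted after seeing the data, the count was 97 of 949 bins (10.2%). The single member with the lowest Early value outside chromosomes 16 and 19 was chromosome 15 from 77500001 to 77550000, at 0.129 and 0.109 in Basal against -1.22 in Early, with 0.446 and 0.171 in Late; it was chosen after its values were seen.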
